A study of Rattus norvegicus with 24 samples.

Results

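The genes of retinoic acid synthesis and response described here are Rdh10, Aldh1a1, Aldh1a2, Aldh1a3, Cyp26b1, Crabp1, Crabp2, Rara and Rarb. They were taken by gene symbol from the deposited expression table, and they make up 9 of its 17420 genes. Each was compared across 4 maternal treatments on the log2 scale. RNA from the hippocampus and neocortex of 24 rat fetuses at embryonic day 18 had been sequenced, with 6 pups in each group, 3 from each of 2 litters. Pups are named by group, litter and pup, so that Saline 2.1 is the first pup of the second Saline litter.

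All dams were Sprague-Dawley rats. Saline dams were injected with vehicle on gestational day 17. MAM dams received methylazoxymethanol acetate, an agent that methylates DNA, at 22 mg/kg, and Poly I:C dams received a synthetic double-stranded RNA at 7.5 mg/kg, in both cases on day 17. Tissue was collected on day 18, 18 hours after injection. Low Protein dams ate a diet with 6.1% protein from day 11 to day 18, while the control diet held 20.3% protein. Neither the diet of the dams given MAM or Poly I:C nor an injection of the Low Protein dams is given in the sources used here, so diet and injection cannot be told apart in the Low Protein comparison. The dam was treated and the pup was sequenced, so the p-values below measure the spread between pups of 2 litters per group.

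As background, retinoic acid is a signalling molecule made from vitamin A. Retinol is oxidised to retinaldehyde by enzymes such as RDH10, and retinaldehyde is oxidised to retinoic acid by the ALDH1A enzymes. Inside the cell it is carried by the CRABP proteins, is broken down by the CYP26 enzymes, and activates RAR receptors that bind DNA together with RXR partners. In the fetal forebrain the meninges are a known source of retinoic acid, and the developing striatum is known for strong RARB expression.

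The receptors bind well to a direct repeat of hexamers with a spacing of 5 bases, known as the DR5 retinoic acid response element. The hexamer was searched as AGGTCA by consensus. The form AGTTCA was accepted too, and so were the form GGGTCA and the form GGTTCA. The repeat was sought on both strands of the RefSeq promoter windows of the GRCr8 build, which run from 250 bases before to 50 bases after each gene's start, and 128 of 33469 windows (0.382%) held it. A window was given for 8 of the 9 genes (not for Rdh10), and Rarb was the 1 gene among them with the element. Of 27 windows for other retinoid genes, that of Cyp26a1, which encodes another retinoic acid hydroxylase, held it. Both sites are shown because Rarb and Cyp26a1 are textbook targets of the receptors, with the hexamers in capitals and 6 bases on each side. The Rarb site (chr15:11336410-11336438, plus strand, as is the gene) lay 24 to 40 bases past the annotated start, and the Cyp26a1 site (chr1:244883724-244883752, read on the minus strand of a plus-strand gene) lay at bases -92 to -76 relative to it.
Rarb: gggaagGGTTCAccgaaAGTTCActcgca
Cyp26a1: caaattAGTTCAcccaaAGTTCAtcttta
These matches describe the letters of the windows and not the binding of a receptor in this tissue.

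The values are TPM as deposited, with an offset of 0.0001 added by the authors. All 9 genes were above the offset in all 24 pups. For 10786 genes, the 9 described here among them, the values were whole multiples of what 1 read was worth in a pup, so read numbers could be recovered. Summed over those genes, the pups held 6808854 to 17320355 reads. What 1 read was worth followed the GRCr8 genomic span of a gene for 48.1% of 10180 genes compared, and mRNA lengths were not compared. Of the 9 genes, Aldh1a2, Crabp1, Crabp2 and Cyp26b1 followed that span. The length implied by a read's worth was 0.27 of the span for Aldh1a1, 0.79 for Aldh1a3, 0.29 for Rara, 0.22 for Rarb and 0.92 for Rdh10. TPM levels are therefore compared below between pups and not between genes. The read numbers set the precision. Crabp2 rested on 635 to 2192 reads per pup, Aldh1a1 on 39 to 113 and Aldh1a3 on 2 to 61.

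The tissue label matched its defining markers, since the cortical neuron factors Neurod2 and Neurod6 ranged from 50.8 to 114 TPM and from 46.8 to 127 TPM over the 24 pups. Emx1 was not listed. Markers of neighbouring tissue were present in every pup, and 4 pups stood apart on striatal or meningeal markers. In Saline 2.1, 8 of 10 striatal markers had their highest value of all pups and 7 of 11 neocortical and hippocampal markers their lowest, with a summed striatal level of 23.7 TPM against 12.4 to 16.1 TPM in the other Saline pups. It was also highest for 7 of 8 markers of the ganglionic eminence, at 99.0 TPM against 47.0 to 63.5 TPM. In Low Protein 2.2 all 10 meningeal markers were highest, at a summed 77.5 TPM, and Low Protein 1.1 followed with 46.9 TPM, while the Saline pups ranged from 19.9 to 31.8 TPM. In Low Protein 1.3, 9 of these 10 markers were lowest, at a summed 10.7 TPM. Low Protein 1.1 also had the lowest summed striatal level, 7.04 TPM. None of the 10 meningeal or 10 striatal markers was at the offset in any pup. Choroid plexus markers summed to 34.6 TPM in Poly I:C 1.3, 59.3 TPM in MAM 1.3 and 72.6 TPM in MAM 2.3, against 131 to 257 TPM in the other pups. In bulk tissue, fewer cells of a type and less RNA per cell cannot be told apart.

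Aldh1a1 had the smallest p of the set in the test across the 4 groups, although the log2 differences of Aldh1a3 from Saline were larger. It was lowest in MAM and highest in Low Protein and Poly I:C. Aldh1a3 in Low Protein and Rarb in MAM were lower than in Saline at an unadjusted p under 0.05, with Saline 2.1 above all other pups for both genes. The remaining 6 genes did not pass the test against Saline in any group. No gene of the set reached an adjusted p under 0.05 against Saline.

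**Figure D1:**
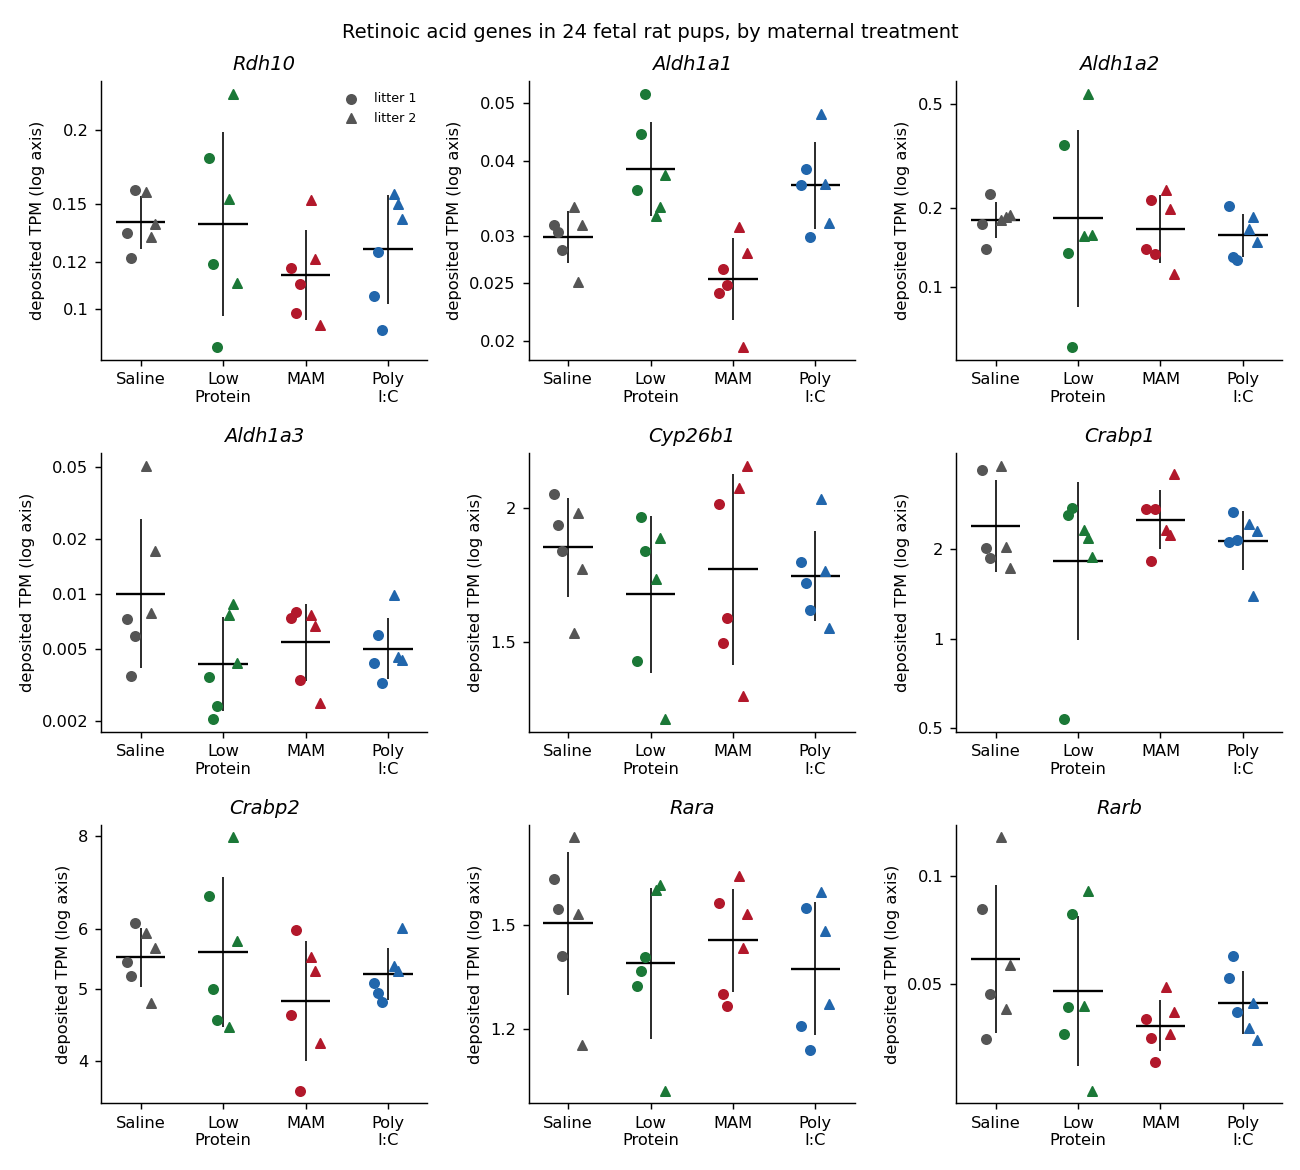
Deposited TPM (log axis) of the 9 genes in each of the 24 pups, with circles for the first and triangles for the second litter of a group, a line at the mean of the log2 values and a bar of 1 SD on either side. In the Aldh1a1 panel all 6 MAM pups sit below all 6 Low Protein pups. In the Aldh1a1, Aldh1a3, Crabp1, Rara and Rarb panels the highest Saline pup is Saline 2.1.

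In limma on log2 TPM over 12653 genes, 2 of the 9 genes passed an unadjusted p under 0.05 in Low Protein against Saline, where 7.20% of all genes did. Aldh1a1 was the 1 higher gene (2.65% of all genes were called higher) and Aldh1a3 the 1 lower gene (4.55% were called lower). In MAM 1 of 9 passed, Rarb, which was lower, where 10.0% of all genes passed and 7.91% were called lower. In Poly I:C 1 of 9 passed, Aldh1a1, which was higher, where 9.44% of all genes passed and 3.96% were called higher. The counts for MAM and Poly I:C were near the background share, and that for Low Protein exceeded it by little more than 1 gene. After adjustment over all genes 0 of the 9 passed in any of these comparisons, beside 0.0158% of all genes for MAM and 0% for both Low Protein and Poly I:C.

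None of the 9 genes separated a treated group from Saline without overlap, while 0.680% of all genes did so for Low Protein, 0.901% for MAM and 0.450% for Poly I:C. The median log2 difference of the 9 genes was -0.12 with Low Protein (-0.01 over all genes), -0.15 with Poly I:C (0.0035 over all genes) and -0.19 with MAM (-0.07 over all genes). All 3 comparisons use the same Saline pups. A test of any difference among the 4 groups (limma F) called 1 of 9, Aldh1a1, at an unadjusted p under 0.05, where 12.8% of all genes were called, and 0 of 9 after adjustment, where 0.158% were.

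**Figure D2:**
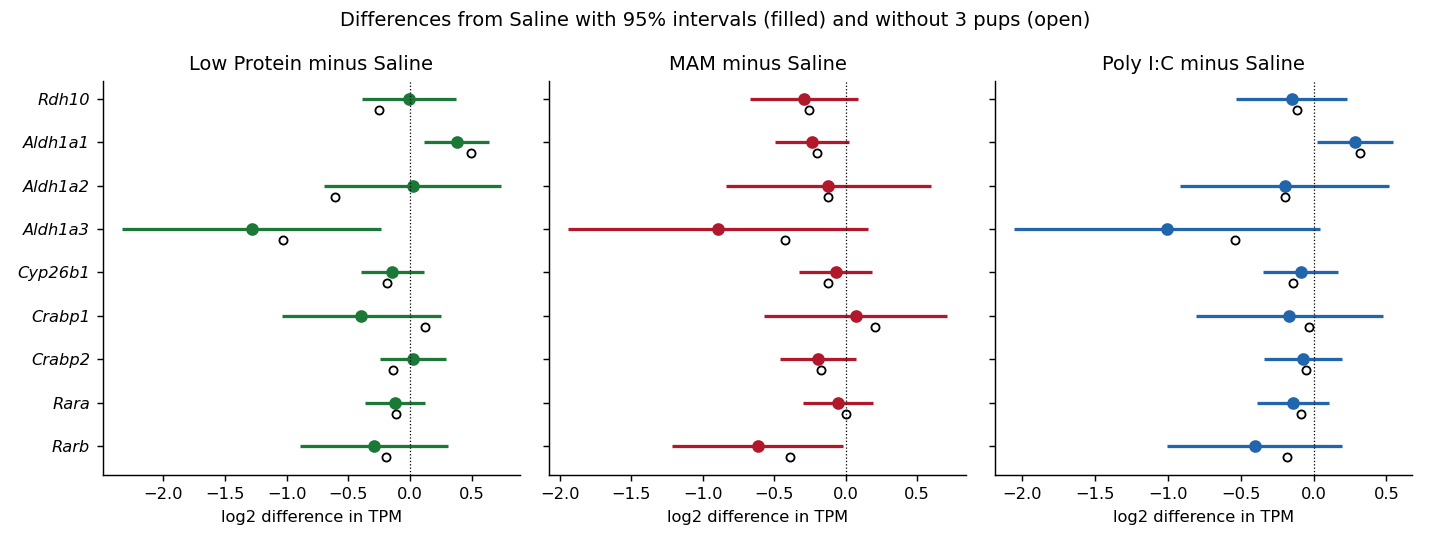
Log2 difference in TPM of each gene between each treatment and Saline (filled points) with its 95% interval from limma, and the same difference without Saline 2.1, Low Protein 1.1 and Low Protein 2.2 (open points). The interval lies on 1 side of 0 for Aldh1a1 and Aldh1a3 in Low Protein, for Rarb in MAM and for Aldh1a1 in Poly I:C, and the Low Protein point of Aldh1a2 moves from 0.02 to -0.61 when the 2 pups highest on meningeal markers are left out and Low Protein 1.3, the lowest, is kept.

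Rdh10, the enzyme of the first oxidation step, had its lowest median in MAM. The lowest, median and highest TPM were 0.122, 0.137 and 0.158 in Saline and 0.0940, 0.114 and 0.152 in MAM. They were 0.0923, 0.133 and 0.156 in Poly I:C and 0.0865, 0.136 and 0.230 in Low Protein. All 4 groups overlapped, and the Low Protein pups spanned the range of all others. The MAM minus Saline difference was -0.29 (SE 0.18) on the log2 scale, which did not pass in limma (adjusted p = 0.547), while the exact two-sided permutation test of 6 against 6 pups gave p = 0.0368 (0.0736 without Saline 2.1). A MAM pup exceeded a Saline pup in 4 of 36 pairs. The differences in Low Protein (-0.0087) and Poly I:C (-0.15) were smaller than their SE of 0.18.

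Aldh1a1 encodes a retinaldehyde dehydrogenase. Its TPM was 0.0256 ± 0.00391 in MAM, 0.0300 ± 0.00290 in Saline, 0.0369 ± 0.00641 in Poly I:C and 0.0393 ± 0.00748 in Low Protein (mean ± SD, n = 6 each). The lowest, median and highest TPM were 0.0251, 0.0308 and 0.0335 in Saline and 0.0323, 0.0368 and 0.0519 in Low Protein. They were 0.0299, 0.0365 and 0.0480 in Poly I:C and 0.0195, 0.0256 and 0.0310 in MAM. Every MAM pup was below every Low Protein pup, which 0.846% of all genes show in 1 direction or the other. A Poly I:C pup exceeded a MAM pup in 35 of 36 pairs, and a Low Protein pup exceeded a Saline pup in 34 of 36.

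Against Saline, Aldh1a1 was 0.38 higher (SE 0.13) in Low Protein on the log2 scale, with an exact two-sided permutation p of 0.00649 and an adjusted p of 0.665 in limma. With Poly I:C it was 0.29 higher (SE 0.13), with an exact permutation p of 0.0281 and an adjusted p of 0.480. With MAM the difference was -0.23 (SE 0.13), which did not pass in limma (adjusted p = 0.522) and had an exact permutation p of 0.0498. The treated groups thus lay on both sides of Saline. The F over the 4 groups was 9.75 (adjusted p = 0.103), with the 33rd smallest p of the 12653 genes.

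The gap was widest between the treated groups. MAM minus Low Protein was -0.61 (SE 0.13), a fold of 0.655, with an adjusted p of 0.0839 and an exact permutation p of 0.00216, the smallest that 6 against 6 pups allow. Poly I:C minus MAM was 0.52 (SE 0.13), a fold of 1.44, with an adjusted p of 0.0514 and an exact permutation p of 0.00433. Neither adjusted p was under 0.05. Poly I:C minus Low Protein was -0.09 with a 95% interval of -0.35 to 0.17 and an exact permutation p of 0.563. In order of level, then, MAM and Saline did not pass in limma, Saline and Poly I:C did, and Poly I:C and Low Protein did not.

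Aldh1a1 was the 1 gene of the 9 that passed an unadjusted p under 0.05 in MAM against Low Protein, where it was lower and 8.70% of all genes passed (7.17% lower). It was also the 1 gene that passed in Poly I:C against MAM, where it was higher and 18.4% of all genes passed (14.7% higher). In Poly I:C against Low Protein 0 of 9 passed, where 4.60% of all genes did. After adjustment 0 of 9 passed in these 3 comparisons, beside 0.0316%, 0.822% and 0.0158% of all genes. The groups of no other gene were free of overlap, which 3.37% of all genes showed for Poly I:C against MAM and 0.261% for Poly I:C against Low Protein.

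Without Saline 2.1, Low Protein 1.1 and Low Protein 2.2, the log2 differences of Aldh1a1 from Saline were 0.49 for Low Protein, -0.20 for MAM and 0.32 for Poly I:C, with exact permutation p-values of 0.00794, 0.104 and 0.0260. Without Low Protein 1.3 as well, the Low Protein difference was 0.38 (exact permutation p = 0.0179). Its log2 level had a Pearson's r of -0.338 with the meningeal and 0.336 with the striatal score over the 24 pups with group means removed. The meningeal r was -0.0007 without Low Protein 1.3 and 2.2, and the striatal r was 0.299 without Low Protein 1.1 and Saline 2.1. The Low Protein call held without any single pup. The litters of that group stood at 0.0440 and 0.0346 TPM, and without the first the difference was 0.21 and no longer passed (exact permutation p = 0.0833). The Poly I:C call was lost without Poly I:C 1.2 or 2.1 or Saline 1.3 or 2.2, where the difference was 0.21 to 0.27. It was also lost without the second Poly I:C litter (0.22) and without either Saline litter (0.28 and 0.29).

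The read numbers of Aldh1a1 were small, 344 to 521 summed over the 6 pups of a group. Counting alone gives an SD of 0.16 to 0.20 on the log2 scale per pup, where the SD observed was 0.14 to 0.26. Aldh1a7, a closely related copy that could share reads with Aldh1a1, was above the offset in 10 of 24 pups and reached at most 0.00166 TPM.

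Aldh1a2 is the retinaldehyde dehydrogenase known from the meninges. Its TPM was similar in the group centres and widely spread in Low Protein. The lowest, median and highest TPM were 0.139, 0.183 and 0.227 in Saline and 0.0589, 0.158 and 0.548 in Low Protein. They were 0.127, 0.157 and 0.204 in Poly I:C and 0.112, 0.169 and 0.235 in MAM. Low Protein held both the highest pups of all 24, 2.2 and 1.1, and the lowest, 1.3. Its log2 SD was 1.12, against 0.23 to 0.43 in the other groups. The log2 difference from Saline was 0.02 (SE 0.35) for Low Protein, -0.12 for MAM and -0.20 for Poly I:C, none of which passed (exact permutation p-values of 0.983, 0.556 and 0.210). Without Low Protein 1.1 and 2.2 and Saline 2.1, the Low Protein difference became -0.61 (SE 0.27, exact permutation p = 0.0397, adjusted p = 0.850). That leaves out the 2 pups highest on meningeal markers and keeps Low Protein 1.3, the lowest, and without Low Protein 1.3 as well the difference was -0.27 and did not pass (exact permutation p = 0.143).

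Aldh1a3, the dehydrogenase known from the lateral ganglionic eminence, was the gene with the fewest reads. The lowest, median and highest TPM were 0.00354, 0.00757 and 0.0508 in Saline and 0.00206, 0.00385 and 0.00886 in Low Protein. They were 0.00326, 0.00443 and 0.00992 in Poly I:C and 0.00252, 0.00699 and 0.00796 in MAM. Saline 2.1 stood above all other pups with 61 reads, and the other 5 Saline pups, at 0.00354 to 0.0171 TPM, overlapped every treated group. The log2 difference from Saline was -1.28 (SE 0.51) in Low Protein, which passed the unadjusted threshold in limma (adjusted p = 0.673) and had an exact permutation p of 0.0779. For MAM it was -0.89 (exact permutation p = 0.201) and for Poly I:C -1.004 (exact permutation p = 0.113). Without Saline 2.1 the differences were -0.82, -0.43 and -0.54, and the first no longer passed (exact permutation p = 0.145), nor did it without Low Protein 1.2 (-1.08). It did not pass either without the second Saline litter (-0.37) or the first Low Protein litter (-0.61). The score of ganglionic eminence markers was -0.44 in Low Protein and -0.31 in MAM relative to Saline on the log2 scale, its r with Aldh1a3 over the 24 pups was 0.295 (rho = 0.0139, and r = -0.0506 without Low Protein 1.1 and Saline 2.1), and its part in the difference was not tested. Counting alone gives an SD of 0.43 to 0.62 per pup on the log2 scale for this gene.

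Cyp26b1, the hydroxylase that breaks retinoic acid down, varied little between pups. Its TPM was 1.68 ± 0.269 in Low Protein, 1.74 ± 0.173 in Poly I:C, 1.78 ± 0.358 in MAM and 1.85 ± 0.189 in Saline (mean ± SD, n = 6 each). The single pups ranged from 1.27 in Low Protein to 2.19 in MAM, and every group overlapped every other. The 95% intervals of the log2 difference from Saline were -0.40 to 0.11 for Low Protein, -0.34 to 0.17 for Poly I:C and -0.32 to 0.19 for MAM. Each pup held 886 to 2688 reads of it.

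Crabp1 and Crabp2 encode the proteins that bind retinoic acid in the cytoplasm. For Crabp1 the lowest, median and highest TPM were 1.73, 2.03 and 3.83 in Saline and 0.536, 2.25 and 2.75 in Low Protein. They were 1.39, 2.23 and 2.68 in Poly I:C and 1.83, 2.52 and 3.57 in MAM. The lowest of all pups was Low Protein 1.1, which was also lowest on striatal markers, and the highest was Saline 2.1, which was highest on them. The log2 difference in Low Protein, -0.39 (SE 0.31, exact permutation p = 0.426), was 0.12 without Saline 2.1, Low Protein 1.1 and Low Protein 2.2. It was -0.17 for Poly I:C and 0.07 for MAM.

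For Crabp2 the lowest, median and highest TPM were 4.79, 5.55 and 6.11 in Saline and 4.44, 5.39 and 7.96 in Low Protein. They were 4.80, 5.18 and 6.02 in Poly I:C and 3.65, 4.94 and 5.99 in MAM. Its highest values were in Low Protein 2.2 and 1.1, the pups highest on meningeal markers, and all groups overlapped. The log2 difference was -0.19 in MAM (SE 0.13, exact permutation p = 0.139), with a 95% interval of -0.46 to 0.07, and smaller than its SE in Low Protein and Poly I:C.

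Rara and Rarb encode nuclear receptors for retinoic acid. Rara TPM was 1.38 ± 0.196 in Poly I:C, 1.40 ± 0.217 in Low Protein, 1.46 ± 0.161 in MAM and 1.52 ± 0.223 in Saline (mean ± SD, n = 6 each). The highest of the 24 pups was Saline 2.1, at 1.81 TPM, and the groups overlapped. The 95% intervals of its log2 difference from Saline were -0.37 to 0.12 for Low Protein, -0.38 to 0.10 for Poly I:C and -0.30 to 0.19 for MAM.

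Rarb was more variable. The lowest, median and highest TPM were 0.0351, 0.0518 and 0.128 in Saline and 0.0253, 0.0434 and 0.0908 in Low Protein. They were 0.0351, 0.0432 and 0.0601 in Poly I:C and 0.0304, 0.0382 and 0.0491 in MAM. The highest MAM pup lay below the Saline median, 1 MAM pup lay below the lowest Saline pup, and the groups overlapped. MAM minus Saline was -0.62 (SE 0.29) on the log2 scale, which passed the unadjusted threshold in limma (adjusted p = 0.495) and had an exact permutation p of 0.0541. The difference was -0.40 for Poly I:C and -0.29 for Low Protein, and neither passed (exact permutation p-values of 0.227 and 0.474). Without Saline 2.1 the MAM difference was -0.39 (exact permutation p = 0.0909). The call was also lost without Saline 1.1 or 2.3 or any MAM pup other than 2.1, where the difference was -0.64 to -0.52. It was lost with values rescaled by the median of ratios (-0.55) or the upper quartile (-0.58). Leaving out the first MAM litter (-0.48), the second MAM litter (-0.75) or the second Saline litter (-0.41) lost it too. So did leaving out either Poly I:C litter, where the difference stayed at -0.62. Of 45 alternatives, 19 lost the call. The summed striatal level was 12.4 to 23.7 TPM in Saline, 11.2 to 15.7 TPM in Poly I:C, 11.2 to 14.1 TPM in MAM and 7.04 to 17.2 TPM in Low Protein, and its part in the Rarb difference was not tested.

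The test of litters within groups (limma F) called Aldh1a3 alone at an unadjusted p under 0.05 (adjusted p = 0.671), 1 of 9 where 7.22% of all genes were called, and none of the 9 after adjustment, where 0% were. The second Saline litter exceeded the first by 1.84 on the log2 scale for Aldh1a3, and the second Low Protein litter exceeded the first by 1.34. For Rara, Crabp2 and Cyp26b1 the litters of each group lay within 0.17 of each other.

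Within groups, several of the genes followed each other from pup to pup, without falling into clearly separate sets. With group means removed, Aldh1a2 went with Rdh10 (Pearson's r = 0.797, Spearman's rho = 0.657) and with Crabp2 (r = 0.786, rho = 0.778), and Crabp2 with Rdh10 (r = 0.614, rho = 0.578). Rara went with Rarb (r = 0.552, rho = 0.505) and with Cyp26b1 (r = 0.519, rho = 0.489). Aldh1a3 went with Rdh10 (r = 0.529, rho = 0.556). It went less closely with Crabp2 (r = 0.423, rho = 0.488) and with Aldh1a2 (r = 0.408, rho = 0.528). Rarb also went with Aldh1a3 (r = 0.481, rho = 0.314) and with Crabp1 (r = 0.475, rho = 0.493). Rara went with Rdh10 as well (r = 0.485, rho = 0.511), and Aldh1a1 with Cyp26b1 (r = 0.443, rho = 0.430). Crabp1 ran against Aldh1a2 (r = -0.492, rho = -0.524). These are descriptions over 24 pups, which share dams, treatments and the dissection of 1 tissue block, and they carry no p.

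**Figure D3:**
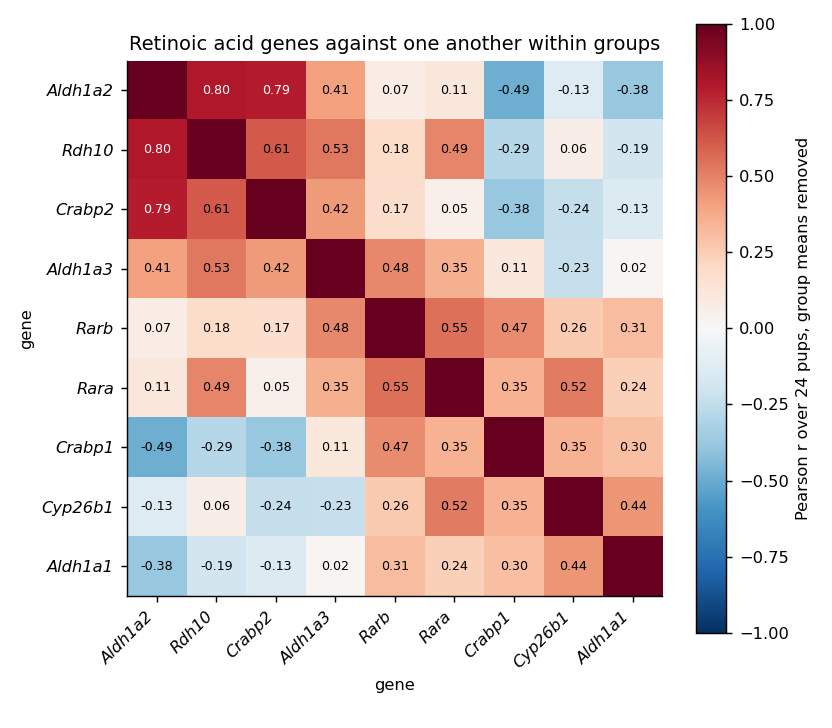
Pearson's r between the log2 values of each pair of genes over the 24 pups after group means were removed, from blue (negative) to red (positive). Aldh1a2, Rdh10 and Crabp2 form a block of r from 0.61 to 0.80, and Crabp1 is negative against all 3.

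Aldh1a2, Rdh10 and Crabp2 followed the meningeal markers, though not these alone. Over the 24 pups with group means removed, the mean log2 level of the 10 meningeal markers had an r of 0.983 with Aldh1a2 (rho = 0.951), 0.831 with Rdh10 (rho = 0.752) and 0.759 with Crabp2 (rho = 0.717). Without the 2 pups farthest from the median of the marker score, Low Protein 1.3 and 2.2, r was 0.965, 0.662 and 0.624. Low Protein 1.3 was lowest for Aldh1a2 and Rdh10 and had 9 of 10 meningeal markers at their lowest. Rdh10 went still more closely with endothelial markers (r = 0.884), which Aldh1a2 followed at r = 0.798 and Crabp2 at r = 0.557. Blood markers had an r of 0.759 with Aldh1a2, 0.668 with Rdh10 and 0.713 with Crabp2 (rho = 0.743 for Crabp2). For microglial markers r was 0.627, 0.590 and 0.446 in the same order.

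Crabp1 and Rarb followed the striatal markers instead, with an r of 0.840 (rho = 0.755) and 0.762 (rho = 0.790). Without Low Protein 1.1 and Saline 2.1, the 2 pups farthest out, r was 0.677 and 0.791. Crabp1 also went with the ganglionic eminence and interneuron markers (r = 0.692, rho = 0.696). Rarb did so less closely (r = 0.473, rho = 0.403). Without the same 2 pups these r were 0.597 and 0.233. Aldh1a3 had an r of 0.324 with the striatal score, which was 0.0797 without these pups. Rara, Cyp26b1 and Aldh1a1 had an r of at most 0.436 with the meningeal or the striatal score. Without Low Protein 1.1 and Saline 2.1 the striatal r of Cyp26b1 was 0.491. Rara had an r of 0.510 with the endothelial markers, and Cyp26b1 had 0.581 with the neocortical and hippocampal markers. With litter means removed as well as group means, r was 0.987 for Aldh1a2 with the meninges and 0.858 for Crabp1 with the striatum. With the striatum it was 0.533 for Rara, 0.505 for Aldh1a1 and 0.409 for Cyp26b1.

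**Figure D4:**
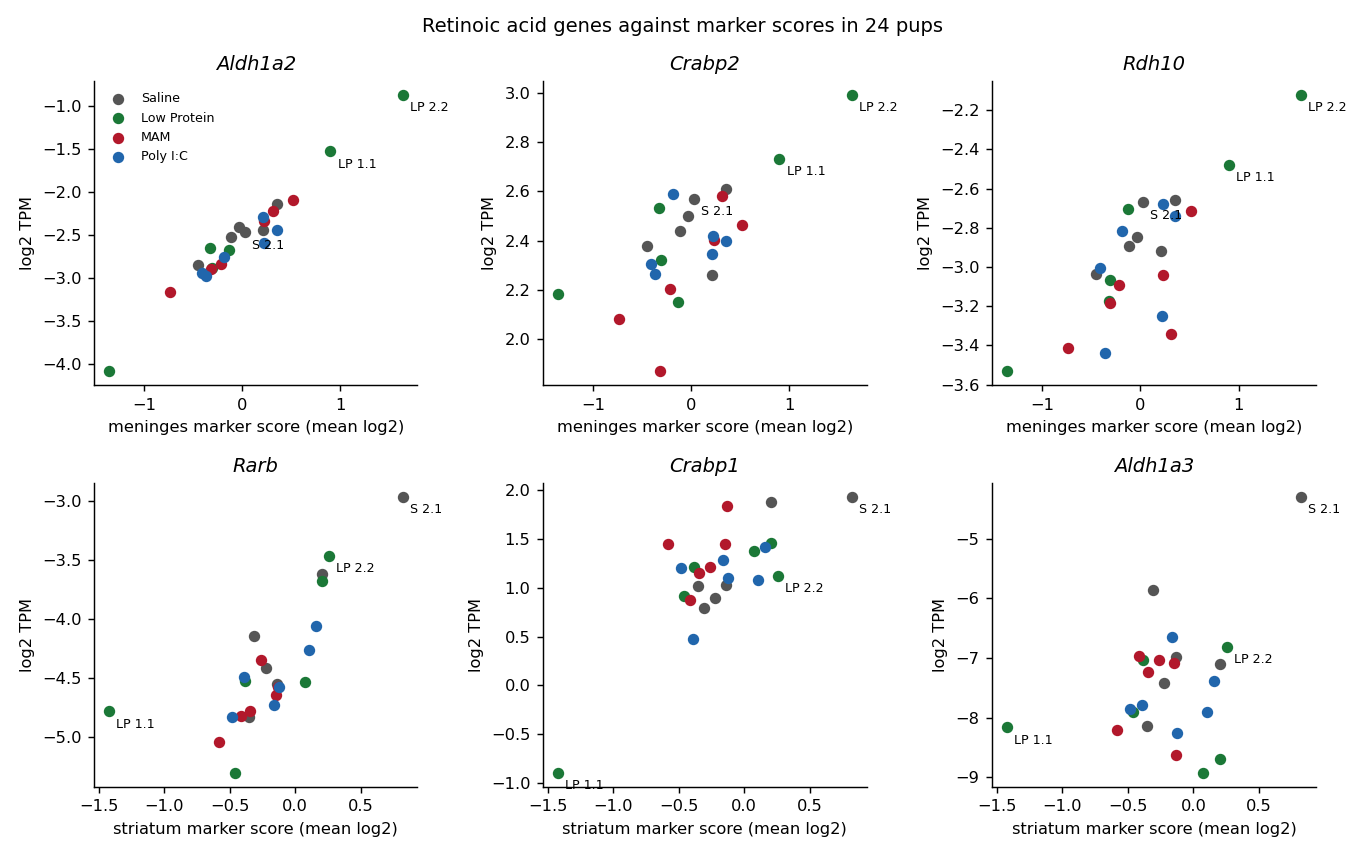
Log2 TPM of Aldh1a2, Crabp2 and Rdh10 against the meningeal marker score (top) and of Rarb, Crabp1 and Aldh1a3 against the striatal marker score (bottom) in the 24 pups, where a score is the mean log2 level of 10 markers relative to Saline. S marks Saline 2.1 and LP marks Low Protein 1.1 and 2.2. Aldh1a2 lies along a line over the whole range of the score, from Low Protein 1.3 (not marked) at the lower left to Low Protein 2.2 at the upper right.

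The genes whose log2 values were most like each of the 9 were sought among 12652 others with group means removed. Aldh1a2 was closest to Osr1 (r = 0.971), Slc22a6 (r = 0.968) and Cdkn1c (r = 0.966), none of them on the meningeal list. Rdh10 was closest to Tagln2 (r = 0.918), the complement gene C1qa (r = 0.916) and Rcsd1 (r = 0.915), and Crabp2 to Uap1l1 (r = 0.866), Nfe2l2 (r = 0.835) and Ctsl (r = 0.832). Rarb was closest to the dopamine receptor gene Drd1 (r = 0.896), then Sox8 and Gucy1a3 (both r = 0.869). Crabp1 was closest to the enkephalin gene Penk (r = 0.90), the dopamine receptor gene Drd2 (r = 0.868) and Rxrg (r = 0.831), and Drd1, Drd2 and Penk are 3 of the 10 striatal markers.

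The other genes had weaker matches. Rara was closest to Bcl11b (r = 0.813), Npepl1 (r = 0.809) and Cdc42ep4 (r = 0.792), and Cyp26b1 to F2rl1 (r = 0.830), St6gal1 (r = 0.781) and Epha4 (r = 0.768). Aldh1a3 was closest to Itm2c (r = 0.774), Rtkn (r = 0.763) and Crlf2 (r = 0.756), and Aldh1a1 to Anapc5 (r = 0.751), Trim32 (r = 0.735) and Ifnar1 (r = 0.712). The highest of 12652 correlations is large by selection, so these values rank the neighbours and test nothing.

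A list of 37 further retinoid genes was read in the same fit, of which 27 were above the offset in all pups, 6 were not, and 4 were not listed. Against Saline, 2 of the 27 were called lower with Low Protein at an unadjusted p under 0.05, 1 was called higher with Poly I:C and 0 were called with MAM, and 0 passed after adjustment. Beside the 4.55% of all genes called lower with Low Protein, the 3.96% called higher with Poly I:C and the 10.0% called with MAM, these counts were near or below the background. The median log2 differences of the 27 were -0.07, -0.07 and -0.02 in the same order, and those of all genes -0.01, 0.0035 and -0.07. Of 15 genes for retinol transport, storage and oxidation, 10 were fitted. Lrat, which esterifies retinol for storage, was 0.0213 ± 0.0151 TPM in Saline and 0.00565 ± 0.00268 TPM in Low Protein (mean ± SD, n = 6 each), a log2 difference of -1.60 (SE 0.60) with an exact permutation p of 0.0476 and an adjusted p of 0.672. Dhrs4, a short-chain dehydrogenase that acts on retinoids, was 0.36 higher in Poly I:C on the log2 scale (SE 0.15, exact permutation p = 0.0584, adjusted p = 0.439). Among the 10 receptor, binding protein and coregulator genes, all fitted, Nrip1, a corepressor of nuclear receptors, had a log2 difference of -0.33 in Low Protein (SE 0.10, exact permutation p = 0.00649, adjusted p = 0.636).

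Between treated groups, Adh1, an alcohol dehydrogenase that also oxidises retinol, had a log2 difference of -1.02 in Poly I:C against Low Protein (SE 0.35, exact permutation p = 0.0433, adjusted p = 0.872) and of -0.81 against MAM (exact permutation p = 0.0130, adjusted p = 0.209). Rdh14, a retinol dehydrogenase gene, was 0.23 higher with Poly I:C than with MAM (exact permutation p = 0.0173, adjusted p = 0.150) and had a difference of -0.17 between MAM and Low Protein (exact permutation p = 0.0649). In MAM against Low Protein, the carotenoid-cleaving enzyme gene Bco2 had a log2 difference of 0.70 (exact permutation p = 0.0476). Lrat was also higher in MAM than in Low Protein, in 33 of 36 pairs of pups (exact permutation p = 0.0130). Of all genes, 8.70% passed an unadjusted p under 0.05 in MAM against Low Protein and 18.4% in Poly I:C against MAM. In Poly I:C against Low Protein 4.60% did. The genes named here were picked from the 27 fitted by that threshold. Of the genes known to respond to retinoic acid, none of Tgm2, Meis1, Meis2, Nr2f1, Nr2f2 and Rarres2 passed an unadjusted p under 0.05 in limma in any pair of groups or in the F.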

How the data were processed

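Polyadenylated RNA of 24 pups was sequenced with a stranded kit in paired reads. Per the labels and the study's methods, the authors trimmed reads (phred 30, minimum length 25), aligned them to rn6 with STAR (version 2.4.1d), quantified them with the Partek E/M tool against RefSeq transcripts (release 80) and deposited TPM values with an offset of 0.0001. The deposited TPM sum to at least 70350.1 in each pup. Litter was read from the first digit of the pup number.

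Log2 TPM were fitted with limma (version 3.58.1, R 4.3.3) over the 12653 genes above the offset in all 24 pups, by group, without a further pseudocount, with Benjamini-Hochberg adjustment over all of them. Single genes were also compared by exact two-sided permutation tests. The fit was tested on simulated data. Whole reads were recovered for genes in which at least 22 of 24 pups lay within 0.02 of a whole number, 85.2% of the genes fitted (Aldh1a1 in 23 pups, each other gene described in 24). Whether a unit is a read or a read pair is not given. Counting errors are those of these reads and cover counting only.

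The 9 genes, the other lists and the tests were chosen with earlier results of these data known. All 9 genes are named, of the retinoid list those with an unadjusted p under 0.05, and for each gene its 3 nearest neighbours. Read-based fits and the fits without 3 or 4 pups were added after the values were seen. Numbers 1.1 to 2.3 do not pair pups across groups, since dams differ and the deviations of pups of the same number had correlations of -0.16 to 0.21. The litter correlation was 0.0092. Depth per pup is given in the results. Some listed genes are not reported here.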

Additional observations from a re-analysis of the deposited data

Results flagged for a closer look

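The log2 values of each gene were examined in each group of 6 pups, 36 groups in all, and 2 had an end pup whose gap to its neighbour exceeded Dixon's critical share of the range of the group. Chance alone gives about 1 in 20 such groups. Crabp1 in Low Protein pup 1.1 was 0.536 TPM, next to 1.88 TPM in the pup above it, a gap of 0.769 of the range on the log2 scale. Crabp1 in Poly I:C pup 2.2 was 1.39 TPM, next to 2.12 TPM, a gap of 0.644 of the log2 range. On the TPM scale neither gap passed, and Aldh1a3 in Saline 2.1 was the 1 value that did, with a gap of 0.713 of the range. The summed striatal marker level was 7.04 TPM in Low Protein 1.1, the lowest of all pups, and 11.6 TPM in Poly I:C 2.2, where the other Poly I:C pups ranged from 11.2 to 15.7 TPM. The part of these markers in the Crabp1 values was not tested.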

How the results depend on the processing

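Counts are of genes at an unadjusted p under 0.05, reported as 2 for Low Protein and 1 each for MAM, Poly I:C, the F over groups and the F over litters. The filter of the study (mean above 1 in every group) left 4 of the 9 genes and gave 0 in all 5. With log2(value + 1) the counts were 1 for Low Protein and 0 for MAM, for Poly I:C and between litters, and with log2(value + 0.01) Poly I:C had 2. MAM had 0 under the median of ratios and the upper quartile and without Saline 2.1, Low Protein 1.1 and Low Protein 2.2 (the 3 pups below), with or without Low Protein 1.3, without which Low Protein had 1, and 3 when only its 12 pups were fitted, where Low Protein had 1. Poly I:C had 0 with a variance trend and with voom on recovered reads. Leaving out 1 pup or 1 litter gave 0 to 2 for each treatment and 1 to 2 for the F over groups. With litter means the 2 Low Protein calls were Aldh1a1 and Crabp1. No adjusted p of the 9 genes against Saline was under 0.05 in any alternative. Aldh1a1 had an F p under 0.05 in all 45 fits that held it, the main fit among them. The adjusted p of that F ranged from 0.0630 to 0.759. The causes were not tested.

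The replicate number as a block raised Poly I:C to 2 and the F over groups to 2 and changed the call of MAM minus Saline for Rarb (lost) and Aldh1a3 (gained) and of Poly I:C minus Saline for Aldh1a3 (gained), though the numbers do not pair the pups.

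Small log2 differences changed sign. Rdh10 in Low Protein was 0.0065 with log2(value + 1), 0.016 with the median of ratios and 0.0098 with voom, and Rara in MAM was 0.012 with the median of ratios. Without the 3 pups, Low Protein was -0.61 for Aldh1a2, 0.12 for Crabp1 and -0.14 for Crabp2, and MAM was 0.0012 for Rara. Without Low Protein 1.3 as well they were -0.27, 0.048, -0.10 and 0.0012. Leaving out 1 pup or litter gave ranges in Low Protein of -0.36 to 0.40 (Aldh1a2), -0.076 to 0.10 (Crabp2) and -0.19 to 0.17 (Rdh10), in MAM of -1.81 to 0.024 (Aldh1a3), -0.031 to 0.21 (Crabp1), -0.14 to 0.01 (Cyp26b1) and -0.14 to 0.032 (Rara), and in Poly I:C of -0.16 to 0.0094 (Crabp2) and -0.39 to 0.093 (Rdh10). Read numbers limit Aldh1a3 and Aldh1a1, and 2 dams per group limit every comparison.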

Other observations

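The 6 retinoid genes that were not above the offset in every pup were left out of the fit. Cyp26a1, a retinoic acid hydroxylase and a textbook target of the receptors, had a lowest, median and highest TPM of 0.00440, 0.0537 and 0.113 in Saline and 0.0159, 0.0344 and 0.0478 in Low Protein. They were 0.0001, 0.0162 and 0.0305 in Poly I:C and 0.0219, 0.0278 and 0.0484 in MAM. The Saline pups spanned nearly the whole range of the other groups, and the medians were not tested. Dhrs9, Adh7, Bco1 and Aldh8a1 stayed at or below 0.0201 TPM in every pup.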
